A study of Mus musculus with 12 samples.

Results

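Tissue inhibitors of metalloproteinases and the genes of plasminogen activation were followed in sorted mouse skin fibroblasts. The genes were Timp1, Timp2 and Timp3, the proteases Plat and Plau, the receptor Plaur and the protease inhibitor Serpine2. They were chosen by name, with earlier results of these data known. A gene was represented by every probe set that the platform annotation pairs with its symbol alone. Of the 7 genes, 6 were found, with 16 probe sets, among 18193 measured genes. The annotation used here paired no probe set with Serpine2, so Serpine2 was not analysed here. Where a gene had several probe sets, the one with the highest mean over the 12 arrays gave its value.

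RNA came from fibroblasts of 3 groups of 4 arrays, 1 array per sample, named here Pap, InvEE and WT after the labels. Pap fibroblasts came from tumour-associated (papilloma) back skin of InvEE mice, InvEE fibroblasts from inflamed back skin of InvEE mice, and WT fibroblasts from normal back skin of wild-type mice. All mice were 7-week-old males that carried the PDGFRα-H2B-eGFP allele, a nuclear green reporter driven by the PDGF receptor alpha locus, and live green cells were sorted from dissociated dermis. As background, InvEE mice express an activated MEK1 kinase under the involucrin promoter, whose activity lies in differentiating epidermal layers and not in fibroblasts, so the fibroblasts in Pap and InvEE skin are not the cells the transgene targets. The labels do not say whether the samples of a group came from separate mice, so the p-values speak of the scatter among these samples, some of which may be technical.

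Matrix metalloproteinases (Mmps) cut collagens and other matrix proteins, and Timps bind their active sites and block them. Timp1 and Timp2 are soluble, whereas Timp3 is held in the matrix and also inhibits several Adam and Adamts proteases. Plat (tissue-type plasminogen activator) and Plau (urokinase) cut plasminogen to plasmin, a broad protease that degrades fibrin and can activate several pro-Mmps. Plaur, the urokinase receptor, holds Plau at the cell surface, and the serpin Serpine2 blocks both activators. In skin this system is known for its part in wound repair, where migrating keratinocytes use it to cut through fibrin.

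Values are log2 expression values as deposited, quantile normalized between arrays here. A difference is the first group's mean minus the second's on the log2 scale, with its standard error (SE) from limma, and is said to be called, or the gene to rise or fall, at a Benjamini-Hochberg adjusted p under 0.05 over all 18193 genes. Pap fibroblasts had high levels of fibroblast markers, as did the other groups: the mean of 8 fibroblast markers lay between 13.21 and 13.30 in Pap, 12.87 and 13.10 in InvEE and 13.03 and 13.14 in WT arrays. Of these markers Pdgfra, the locus of the sort reporter, was called higher in Pap than in WT, Pdgfrb and Dpt were called higher in Pap than in InvEE, and 0 were called between InvEE and WT by limma (2 at an unadjusted p under 0.05). The word dim marks a group mean below 6.16, under which 40% of the probe sets' means lay. The poly-A spike controls, RNAs added during preparation, were lower in InvEE arrays (7.76 to 8.60) than in Pap (9.78 to 12.50) or WT arrays (9.24 to 12.24). For Gapdh the 3′ probe set exceeded the 5′ one, a sign of RNA quality, by 2.29 to 3.76 in Pap, 1.62 to 3.37 in InvEE and 1.59 to 2.28 in WT arrays. The part of either in the results was not tested, except that the fit with a covariate for the spikes is given where it ended a call. Spike levels of InvEE arrays did not overlap those of the other groups, so that fit cannot tell spike level and the InvEE group apart. A call can be lost there through a larger SE alone. In sorted bulk RNA, fewer cells of a type and less RNA per cell cannot be told apart.

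In Pap fibroblasts Timp1 and both plasminogen activators were higher than in WT fibroblasts: Timp1 by 8.10-fold, Plat by 6.53-fold and Plau by 2.69-fold. The Plau call was the weakest: it held in 7 of 12 fits with 1 array left out and under 6 of 8 other settings. The other Plau probe set was not called (0.54 ± 0.52). Timp2, Timp3 and Plaur did not pass the test. Thus 3 of 6 members rose and 0 fell, where 9.65% of all genes were called, 4.85% higher and 4.80% lower. The Pap and WT arrays did not overlap for 3 of 6 members, higher in Pap for Timp1 and Plat and lower for Timp2, where 13.8% of all genes did not, 7.22% higher and 6.56% lower. The median difference of the members was 0.91, against 0.04 over all genes. Because members and lists were chosen with earlier results of these data known, shares and medians set beside those of all genes are descriptions only. Against InvEE fibroblasts 4 of 6 members rose in Pap, namely Timp1, Plat, Plau and Plaur, where 6.71% of all genes were called, 3.67% higher and 3.04% lower. All 6 members had Pap arrays entirely above the InvEE arrays, a pattern seen in 14.5% of all genes, with the opposite one in 6.66% and either in 21.1%. Between InvEE and WT fibroblasts 0 of 6 members passed by limma over all genes, where 0.533% of all genes did. An unadjusted p under 0.05 was found for 2837 of the 18193 genes, and for 2 of 6 members, Timp2 and Plaur (0.00123 and 0.00192). Those 2 genes also had InvEE arrays entirely below the WT arrays, as had 10.2% of all genes, with 5.07% entirely above and 15.3% in either direction. Of all called genes 50.3% were higher in Pap than in WT, or 70.6% when arrays were shifted by their ribosomal protein mean, which moved the median of all genes to 0.25. For InvEE and WT the share was 48.5%, or 32.0% with that shift (median -0.24, against -0.09), and for Pap and InvEE 54.7%, or 89.6% with it (median 0.49, against 0.12) and 71.0% with the spike covariate. The 3 comparisons share arrays, so they are not independent of each other.

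**Figure D1:**
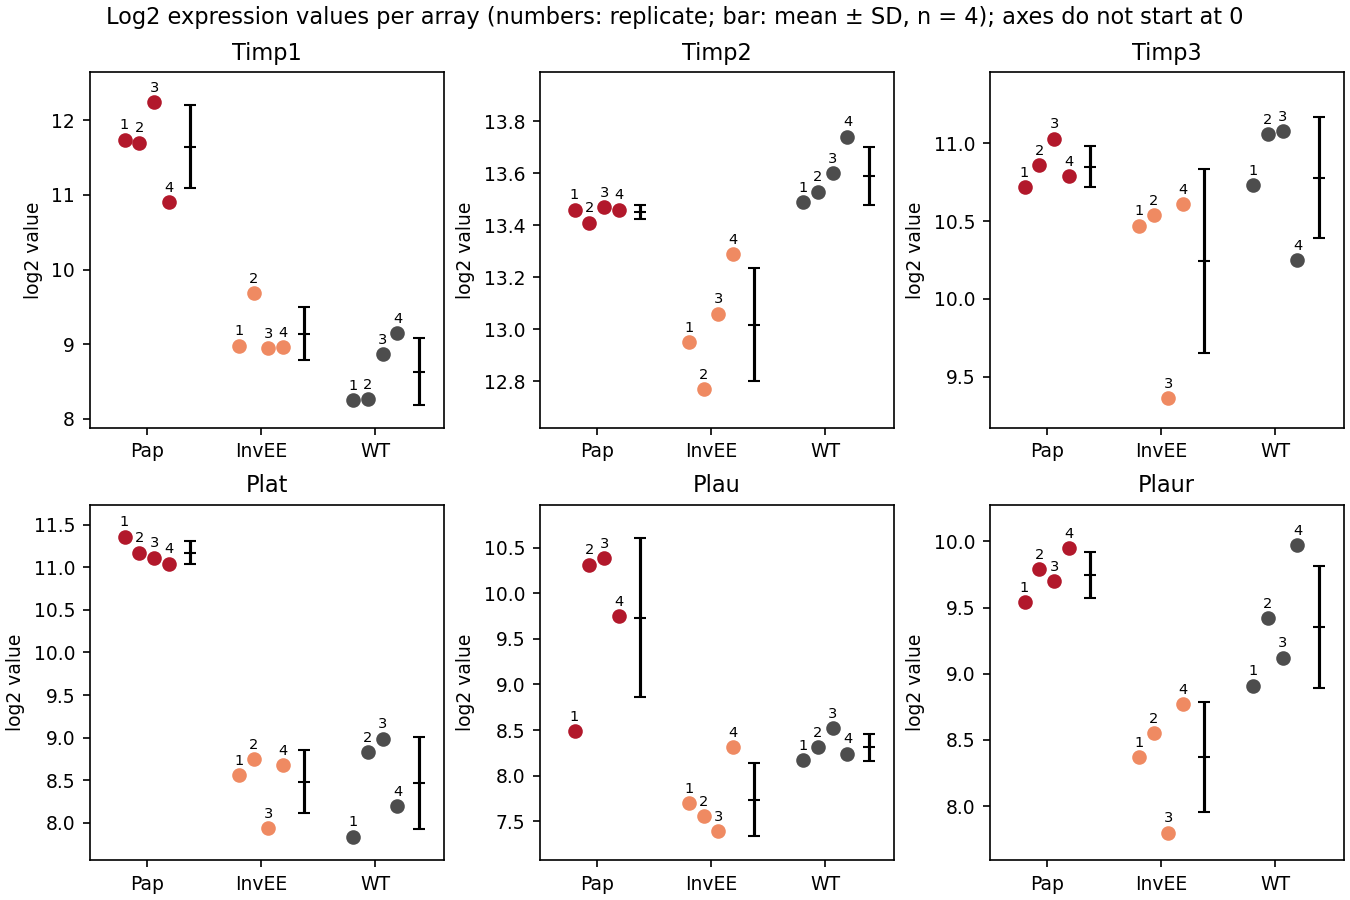
Log2 values of the 6 measured genes on each of the 12 arrays (y axis; each panel has its own range) in Pap, InvEE and WT fibroblasts (x axis). Points are arrays numbered by replicate, and bars are the mean and SD of 4 arrays. Timp1 and Plat in Pap lie above every other array, Pap array 1 lies among the WT arrays for Plau, and Plaur overlaps between Pap and WT.

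Timp1, the inducible soluble inhibitor, had log2 values of 11.74, 11.70, 12.24 and 10.90 in Pap arrays 1 to 4, 8.98, 9.68, 8.95 and 8.96 in InvEE arrays, and 8.25, 8.26, 8.87 and 9.15 in WT arrays. Every Pap array lay above every other array, by more than 1 log2 unit, while InvEE and WT overlapped. The difference between Pap and WT was 3.02 ± 0.30 (SE, n = 4 arrays per group; adjusted p = 8.4e-05), and that between Pap and InvEE was 2.50 ± 0.30 (5.67-fold; adjusted p = 5.1e-04). InvEE and WT differed by 0.51 ± 0.30 (adjusted p = 0.423), with a 95% confidence interval of -0.14 to 1.17. The order of the means was therefore Pap (11.65 ± 0.55, SD), InvEE (9.14 ± 0.36) and WT (8.63 ± 0.45), and the last 2 in that order did not differ beyond their spread by this test. Timp1 had 1 probe set.

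In the RefSeq annotation of GRCm38.p6, the span of Timp1 on chromosome X overlaps that of Syn1, which encodes the synaptic vesicle protein synapsin I, and Timp3 on chromosome 10 overlaps Syn3. Syn1 averaged 7.76 ± 0.42 in Pap, 6.38 ± 0.21 in InvEE and 5.68 ± 0.93 in WT arrays (SD, n = 4 each), and so was dim in WT. Its difference between Pap and WT was 2.08 ± 0.38 (SE; adjusted p = 0.00507), and that between Pap and InvEE was 1.38 ± 0.38 (adjusted p = 0.0520). Syn3 was not called in any of the 3 comparisons, with differences of -0.27 between Pap and WT and -0.38 between InvEE and WT. Timp2 on chromosome 11 overlaps Cep295nl, which averaged 7.51 in Pap, 7.50 in InvEE and 8.47 in WT arrays and was not called. Whether signal from a member reaches the probe set of its overlapping gene was not tested.

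Timp2, known for binding the membrane protease Mmp14 in the activation of pro-Mmp2, was close to level between Pap and WT arrays. Its log2 values were 13.46, 13.41, 13.47 and 13.46 in Pap, 12.95, 12.77, 13.06 and 13.29 in InvEE, and 13.49, 13.53, 13.60 and 13.74 in WT arrays. The InvEE arrays were the lowest, with no overlap with either other group. The Pap arrays lay just below the WT arrays, which were the highest. The difference was -0.14 ± 0.14 between Pap and WT (adjusted p = 0.612; 95% confidence interval -0.44 to 0.16), 0.43 ± 0.14 between Pap and InvEE (adjusted p = 0.0800) and -0.57 ± 0.14 between InvEE and WT (adjusted p = 0.0922). None of these passed, and the first was 0.07 when arrays were shifted by their ribosomal protein mean. On the 5 other probe sets of Timp2 the differences had the same signs: -0.25 to -0.07 between Pap and WT, 0.32 to 1.00 between Pap and InvEE and -1.21 to -0.43 between InvEE and WT, none called. On the probe set that gave -1.21, InvEE array 3 stood at 9.99, against 11.14 to 11.88 in the other InvEE arrays.

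Timp3, the inhibitor that stays bound to the matrix, had log2 values of 10.72, 10.86, 11.03 and 10.79 in Pap, 10.47, 10.54, 9.36 and 10.61 in InvEE, and 10.73, 11.06, 11.08 and 10.25 in WT arrays. Pap arrays lay above InvEE arrays, and WT arrays overlapped both. The differences were 0.07 ± 0.27 between Pap and WT (adjusted p = 0.920; 95% confidence interval -0.53 to 0.67; -0.17 on the mean of its probe sets), 0.61 ± 0.27 between Pap and InvEE (adjusted p = 0.183) and -0.54 ± 0.27 between InvEE and WT (adjusted p = 0.365). InvEE array 3 stood apart at 9.36, and without it the difference between Pap and InvEE was 0.31 and that between InvEE and WT was -0.24. The 3 other probe sets of Timp3 gave -0.62 to 0.09 between Pap and WT, 0.07 to 0.61 between Pap and InvEE, 1 of them called (0.61 ± 0.14, adjusted p = 0.0296 over all probe sets), and -0.69 to -0.29 between InvEE and WT.

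Plat, the tissue-type activator, had log2 values of 11.36, 11.17, 11.11 and 11.04 in Pap, 8.56, 8.75, 7.94 and 8.68 in InvEE, and 7.84, 8.83, 8.99 and 8.20 in WT arrays. Pap arrays formed a narrow band above all others, and InvEE and WT arrays covered the same range. The difference was 2.71 ± 0.26 between Pap and WT (SE; adjusted p = 6.0e-05) and 2.69 ± 0.26 between Pap and InvEE (6.45-fold; adjusted p = 1.2e-04). Between InvEE and WT it was 0.02 ± 0.26 (adjusted p = 0.977), with a 95% confidence interval of -0.55 to 0.58, and its sign turned with the ribosomal protein shift (-0.13) and the spike covariate (-0.31). A second probe set of Plat was dim in WT (6.03) and rose by 1.63 ± 0.38 between Pap and WT (adjusted p = 0.0232 over all probe sets); between Pap and InvEE it gave 1.24 ± 0.38 (adjusted p = 0.0801).

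Plau, the urokinase-type activator, had log2 values of 8.49, 10.31, 10.38 and 9.75 in Pap, 7.70, 7.56, 7.39 and 8.31 in InvEE, and 8.17, 8.31, 8.52 and 8.24 in WT arrays. Pap arrays 2 to 4 lay above all WT arrays, while Pap array 1 lay within the WT range. The difference between Pap and WT was 1.43 ± 0.36 (adjusted p = 0.0268), and without Pap array 1 it was 1.84 ± 0.24 (adjusted p = 9.4e-04). The call was lost when Pap array 2 or 3 or WT array 1, 2 or 4 was left out (differences of 1.21 to 1.43, adjusted p = 0.0541 to 0.0711) and when the mean of both Plau probe sets was used (0.98, adjusted p = 0.160). It was also lost when only these 8 arrays were fitted (adjusted p = 0.0670). The other probe set of Plau gave 0.54 ± 0.52 between Pap and WT (adjusted p = 0.616). Between Pap and InvEE Plau rose by 1.99 ± 0.36 (3.98-fold; adjusted p = 0.00666), or 1.51 ± 0.52 on the other probe set (adjusted p = 0.108). With the spike level as a covariate that difference was 2.48 ± 0.60 and was not called (adjusted p = 0.0749). InvEE and WT differed by -0.57 ± 0.36 (adjusted p = 0.456).

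Plaur, the urokinase receptor, had log2 values of 9.54, 9.79, 9.70 and 9.95 in Pap, 8.37, 8.55, 7.80 and 8.77 in InvEE, and 8.91, 9.42, 9.12 and 9.97 in WT arrays. InvEE arrays were below all arrays of the other groups, and Pap and WT overlapped because of WT array 4. Plaur rose by 1.37 ± 0.25 between Pap and InvEE (2.59-fold; adjusted p = 0.00704), and with the spike covariate it was 0.85 ± 0.38 and not called (adjusted p = 0.309). Against WT, InvEE showed a difference of -0.99 ± 0.25, a 1.98-fold lower level that did not pass (adjusted p = 0.104; 95% confidence interval -1.53 to -0.44). Between Pap and WT it was 0.39 ± 0.25 (adjusted p = 0.409; 95% confidence interval -0.16 to 0.93). The means were thus 9.74 ± 0.17 in Pap, 8.37 ± 0.41 in InvEE and 9.36 ± 0.46 in WT (SD), highest in Pap and lowest in InvEE, and neither difference from WT passed the test over all genes.

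Promoter sequence was at hand for Timp1 and Plaur, the 2 of the 4 genes called between Pap and InvEE that have an entry in the RefSeq promoter table used here (build GRCm38.p6). The 250 bases before the annotated start are shown 5′ to 3′ because both genes were called higher in Pap there, with any AP-1 motif in capitals. Their patterns over the 3 groups differed: between InvEE and WT Timp1 gave 0.51 and Plaur -0.99, neither called. AP-1 is a family of transcription factors that binds TGANTCA, which reads the same on both strands. The Timp1 stretch is chrX:20869916-20870165 (plus strand) and the Plaur stretch is chr7:24462233-24462482 (plus strand).
Timp1: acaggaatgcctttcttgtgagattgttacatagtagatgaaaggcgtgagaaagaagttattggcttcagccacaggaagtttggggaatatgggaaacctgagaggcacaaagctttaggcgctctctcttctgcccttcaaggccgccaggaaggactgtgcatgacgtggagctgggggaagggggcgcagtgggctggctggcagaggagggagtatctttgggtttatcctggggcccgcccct
Plaur: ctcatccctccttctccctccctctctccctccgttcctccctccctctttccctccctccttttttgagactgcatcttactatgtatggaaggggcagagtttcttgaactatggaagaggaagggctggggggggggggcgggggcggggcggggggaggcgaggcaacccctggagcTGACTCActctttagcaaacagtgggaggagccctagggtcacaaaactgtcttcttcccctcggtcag
The Plaur stretch held the motif once, as TGACTCA, from 69 to 63 bases before the start. Of 32851 promoter stretches of the same length, 2217 (6.75%) held at least 1 match. The stretches of Timp1, Timp2, Timp3 and Serpine2 held none, which says only that these letters are not in those windows. The GC content was 54.4% for Timp1 and 59.6% for Plaur, against 68% for Timp2, 65.6% for Timp3 and a median of 52.4% over all stretches. A match is a description of the sequence and not a measured binding site.

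**Figure D2:**
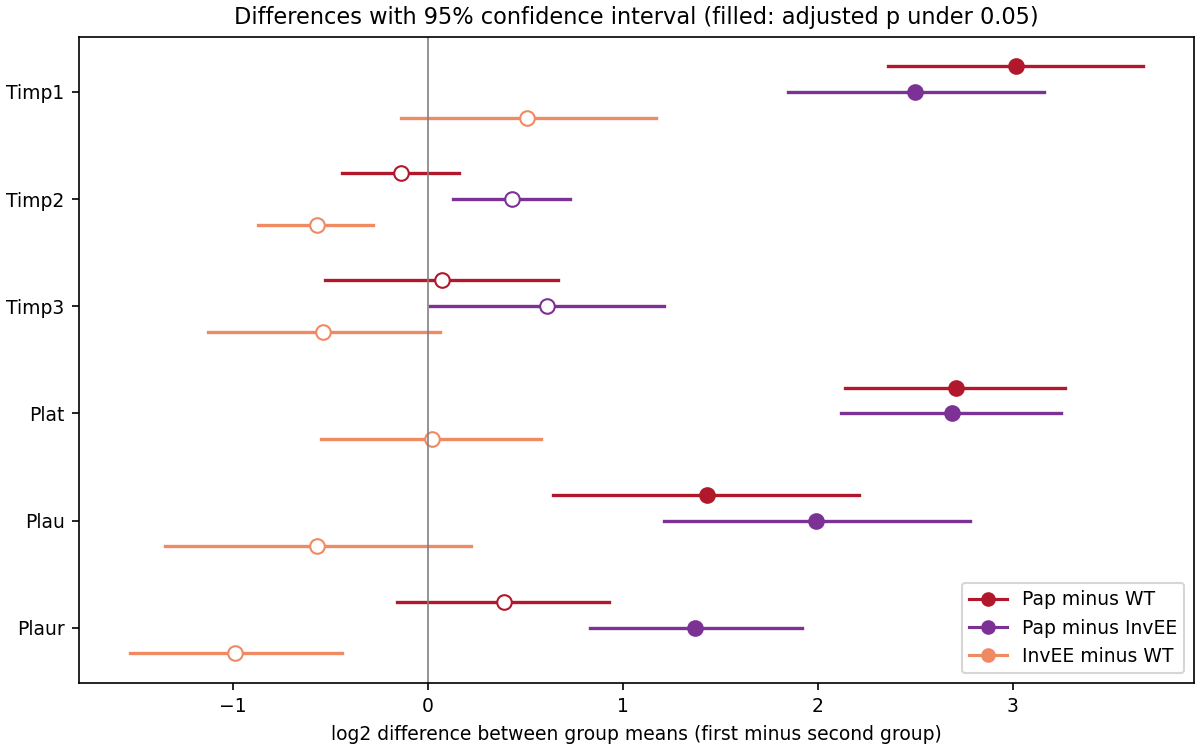
Differences of group means on the log2 scale (x axis) for the 6 genes (y axis) in 3 comparisons, with 95% confidence intervals from limma. Filled points are called at an adjusted p under 0.05. Timp1 and Plat differ by 2.50 to 3.02 in both comparisons with Pap, and all 6 differences between InvEE and WT are open points.

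**Figure D3:**
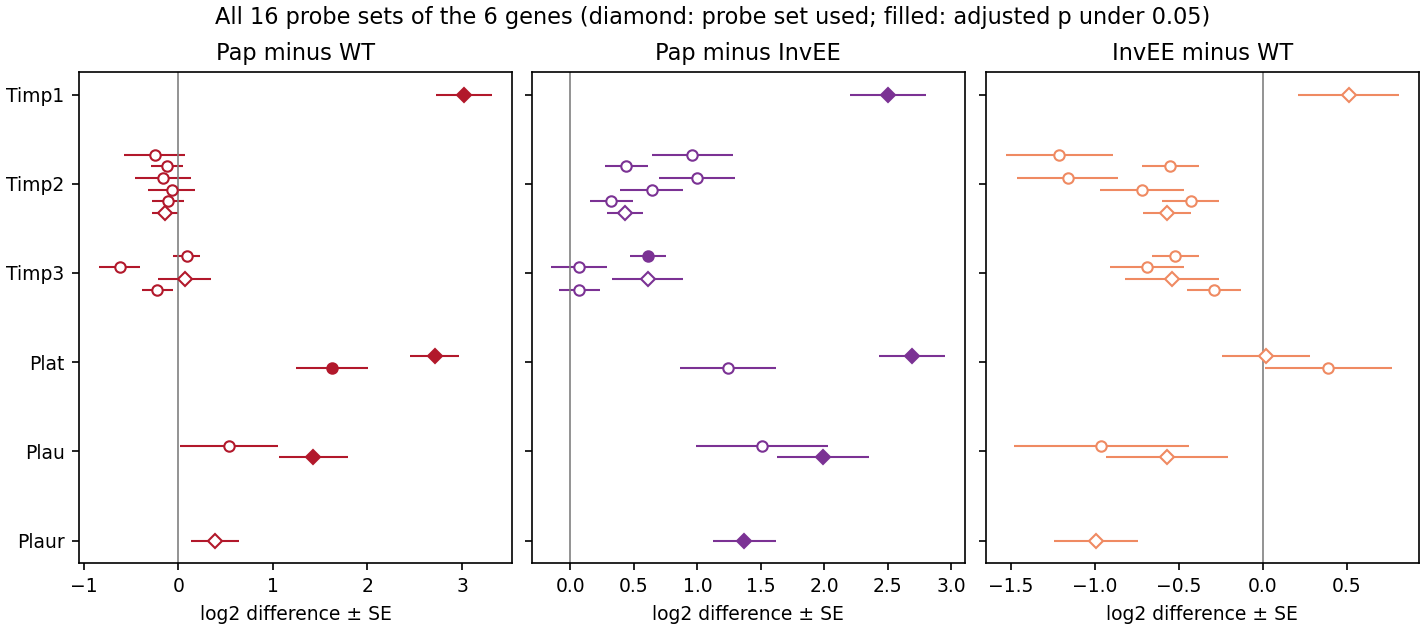
Differences ± SE on the log2 scale (x axis) for all 16 probe sets of the 6 genes (y axis), 1 panel per comparison. Diamonds are the probe sets that gave the gene values, and filled symbols are called at an adjusted p under 0.05 over all probe sets. The 6 Timp2 probe sets cluster between -0.25 and -0.07 for Pap minus WT, and the second probe sets of Plat and Plau show smaller differences than the first in both comparisons with Pap.

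In a list of other metalloproteinase inhibitors and related genes, the membrane-anchored inhibitor Reck fell in Pap. Tfpi2, a secreted inhibitor of plasmin and other serine proteases, rose. Reck had log2 values of 8.75, 9.34, 9.93 and 8.99 in Pap, 11.13, 11.06, 10.75 and 11.23 in InvEE, and 11.43, 11.49, 11.29 and 11.08 in WT arrays. Pap arrays were below all others for Reck, with a difference of -2.07 ± 0.23 between Pap and WT (adjusted p = 1.9e-04) and -1.79 ± 0.23 between Pap and InvEE (adjusted p = 7.9e-04). The second was -1.25 with the spike covariate and then not called (adjusted p = 0.103). Reck thus went the other way from Timp1, in the same Pap arrays. Tfpi2 averaged 8.85 ± 0.83 in Pap and a dim 4.81 ± 0.29 in WT (SD), a rise of 4.04 ± 0.45 (SE) whose size depends on how background was treated, as for every gene that is dim in 1 group. Spock2, a matrix proteoglycan, fell by 1.92 ± 0.30 between Pap and WT. Its relative Spock1 rose by 1.97 ± 0.38 between InvEE and WT (adjusted p = 0.0447), a call lost in most of the alternatives (adjusted p up to 0.318), and fell by 2.60 ± 0.38 between Pap and InvEE. Timp4 was dim in all groups, at 5.47 in Pap, 5.35 in InvEE and 5.47 in WT. Between Pap and WT 4.85% of all genes rose and 4.80% fell. Of the 8 genes of this list, 1 rose and 2 fell between Pap and WT, with a median of 0.03 against 0.04 over all genes. The gene that rose was Tfpi2, which is counted again on the thrombin side below.

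In the plasminogen system beyond the members, 2 of 19 measured genes rose and 1 fell between Pap and WT, with a median of -0.06 against 0.04 over all genes. These calls are 15.8% of the list, against 9.65% of all genes called, 4.85% higher and 4.80% lower. The growth factor gene Hgf, whose inactive product urokinase can cut in biochemical assays, had log2 values of 10.10, 9.63, 9.62 and 9.46 in Pap, 7.14, 6.73, 6.63 and 6.90 in InvEE and 7.53, 7.04, 7.62 and 7.40 in WT arrays. Hgf rose by 2.31 ± 0.19 between Pap and WT (adjusted p = 1.7e-05) and by 2.85 ± 0.19 between Pap and InvEE (adjusted p = 6.8e-06). Serpini1, which encodes the Plat inhibitor neuroserpin, rose by 0.96 ± 0.22 between Pap and WT, where it was dim, and Lrp1, the scavenger receptor that clears activator and serpin complexes, fell by 0.79 ± 0.18. Each of these 2 calls was lost in 2 alternatives: for Serpini1 the mean of its probe sets (0.37, adjusted p = 0.0919), for Lrp1 the ribosomal protein shift (-0.58, adjusted p = 0.160), and for both the fit of the 8 arrays alone (adjusted p = 0.0595 and 0.0672). Between Pap and InvEE 4 of 19 rose and 0 fell: Hgf, Serpini1 (1.10 ± 0.22), Mrc2, a collagen uptake receptor that associates with Plaur (0.98 ± 0.23), and Serpinf2, which encodes the plasmin inhibitor antiplasmin (0.63 ± 0.16). Of all genes 3.67% rose and 3.04% fell in that comparison. The Mrc2 call was lost without InvEE array 1, 2 or 4, in the fit of the 8 arrays alone and with the spike covariate (adjusted p up to 0.265). The Serpinf2 call was lost without Pap array 1 or 4, any 1 InvEE array or WT array 1, and also without quantile normalization, with the replicate block (0.63, adjusted p = 0.0507), in the 8 arrays alone and with the spike covariate (adjusted p up to 0.492). In InvEE against WT 0 of 19 passed by limma over all genes, and 7 had an unadjusted p under 0.05, as had 2837 of all 18193 genes. Plg, the gene of plasminogen itself, which is made mainly in liver, was dim in all groups (5.57, 4.98 and 5.31 in Pap, InvEE and WT).

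On the thrombin side, 3 of 9 measured genes rose and 0 fell between Pap and WT, with a median of 0.51. Of all genes 4.85% rose and 4.80% fell there, with a median of 0.04. F3, the tissue factor that starts clotting, averaged 8.30 ± 0.85 in Pap and a dim 5.51 ± 0.35 in WT (SD), a rise of 2.79 ± 0.35 (SE). F2r, the thrombin receptor, rose by 2.35 ± 0.57, or by 1.57 ± 0.16 without WT array 4, in which it stood at 8.01 against 10.82 to 11.38 in the other WT arrays. That call was lost without Pap array 1 (adjusted p = 0.0525) and in the fit of the 8 arrays alone (adjusted p = 0.0755). Tfpi2 is the third of these genes. Of 12 other serpins 0 rose and 3 fell between Pap and WT, with a median of -0.03. Serpina3n, an inhibitor of neutrophil and other serine proteases, fell by 1.93 ± 0.26 between Pap and WT, and Serpinb1a, another such inhibitor inside cells, fell by 1.94 ± 0.29. Serping1, the C1 inhibitor of complement, fell by 1.01 ± 0.24, and Serpinf1, which encodes pigment epithelium-derived factor, rose by 0.64 ± 0.14 between Pap and InvEE. The Serping1 call was lost without WT array 2 or 3, with the ribosomal protein shift and in the 8 arrays alone (adjusted p up to 0.0849). The Serpinf1 call was lost without InvEE array 1 or 2 and with the spike covariate (adjusted p up to 0.178).

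The metalloproteinases that Timps inhibit are given in counts. Of 18 measured Mmp genes 8 rose and 0 fell between Pap and WT, with a median of 0.42, and 6 rose and 0 fell between Pap and InvEE, with a median of 0.73 against 0.12 over all genes. Of all genes 4.85% rose and 4.80% fell between Pap and WT (median 0.04), and 3.67% rose and 3.04% fell between Pap and InvEE. The collagenase gene Mmp13 averaged 10.37 in Pap and a dim 2.78 in WT, a rise of 7.59 ± 0.29. The other Mmp genes with the smallest adjusted p between Pap and WT were Mmp10 (3.89 ± 0.50), Mmp11 (2.98 ± 0.45), Mmp9 (1.75 ± 0.27) and Mmp16 (2.04 ± 0.41), and the remaining 3 that rose were Mmp8, Mmp17 and Mmp19. Mmp14, the membrane protease partnered by Timp2, rose by 1.02 ± 0.17 between Pap and InvEE. Of 13 Adam and Adamts genes 5 rose and 1 fell between Pap and WT, with a median of 0.45. Adam12 rose by 6.14 ± 0.49, Adam19 by 3.53 ± 0.36, Adamts4 by 3.51 ± 0.42, Adamts12 by 2.49 ± 0.32 and Adam9 by 1.34 ± 0.31, while Adam33 fell by 1.83 ± 0.29. In InvEE against WT 0 Mmp, Adam or Adamts genes passed by limma over all genes, while 5 of the 18 and 5 of the 13 had an unadjusted p under 0.05. Of all 18193 genes, 2837 had such an unadjusted p there. Of 7 measured binding partners of Timps and Plaur, the integrin subunits Itgb1 (1.12 ± 0.25), Itgav (1.34 ± 0.26) and Itga5 (1.10 ± 0.21) rose and Efemp1, a matrix protein that binds Timp3, fell by 2.23 ± 0.50 between Pap and WT, with a median of 0.23 for the list. On the mean of its probe sets Itgav differed by 0.36 and was not called (adjusted p = 0.0997), and the Efemp1 call was lost in the 8 arrays alone (adjusted p = 0.0530). With the spike level as a covariate, 16 of the 21 calls between Pap and InvEE among the genes named from these lists were lost, and those of Hgf, F3, Tfpi2, Mmp13 and Adam19 remained. Spike level and the InvEE group cannot be told apart in that fit.

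**Figure D4:**
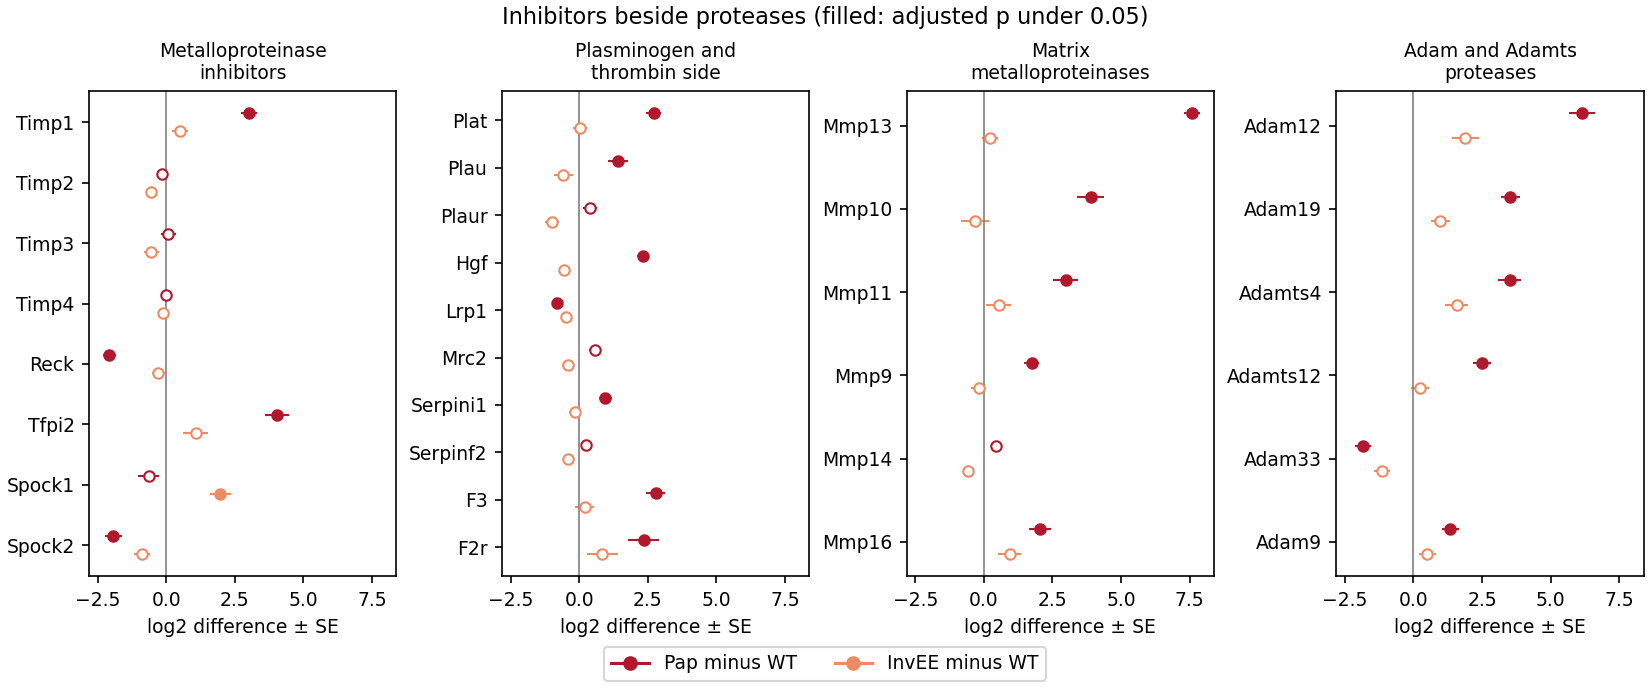
Differences ± SE on the log2 scale (x axis) for genes listed with the metalloproteinase inhibitors, genes of the plasminogen and thrombin side, and the proteases (y axes), as Pap minus WT and InvEE minus WT. Filled points are called at an adjusted p under 0.05. The Mmps and the Adam and Adamts genes shown are only those called in at least 1 comparison, at most 6 per list. The same holds for the plasminogen and thrombin side beyond Plat, Plau and Plaur, whereas the inhibitors include genes not called. In Pap minus WT the listed inhibitors run both ways, with Timp1 at 3.02 and Reck at -2.07, while the Mmps shown lie at or above 0. Of all 18 measured Mmps, 14 had a positive difference in Pap minus WT.

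Likeness was measured as the root mean square difference over the 12 arrays between genes centred on their own means. The nearest gene is the smallest of all these differences, so it lies below their median by construction. Values were not scaled, so genes that vary little lie near each other whatever their pattern. The gene nearest to Plat was Thbs2, which encodes a matricellular thrombospondin, at 0.24 log2 units, against a median of 1.32 over all genes. Next came Fxyd6 (0.39) and Nxn (0.42). Timp1 was nearest to Hhipl1 (0.40), Me1 (0.42) and Lgals3bp (0.42), and Plau to Cpxm2 (0.40), Cnn1 (0.40) and Qsox1 (0.41). Plaur was nearest to Ostm1 (0.29), Mmp14 (0.29) and Scarf2 (0.30), where the median over all genes was 0.71. Among the members, the nearest pairs were Timp2 and Timp3 (0.41), Timp2 and Plaur (0.49), and Timp1 and Plat (0.50). Plat and Plau lay 0.77 apart, Timp1 and Plau 0.89, and the farthest pair was Timp1 and Timp2 (1.38).

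Within groups, some arrays were the lowest or the highest for several members at a time. The share of all genes lowest or highest on each array was not measured, so this may hold for other genes as well. Pap array 3 and InvEE array 4 were each the highest of their group for 4 of 6 members. InvEE array 3 was the lowest of its group for 5 of 6 members, and had the highest Gapdh 3′ minus 5′ difference of its group (3.37). The exception, Timp2, depended on the probe set used. On most of the 5 other Timp2 probe sets InvEE array 3 was the lowest InvEE array too, for example at 10.55 against 11.44 to 12.25. WT array 1 was the lowest of its group for 5 of 6, all but Timp3, and its Gapdh difference was 1.69, within the range of the other WT arrays. Pap array 4 had the highest Gapdh difference of all arrays (3.76) and was the lowest of its group for 2 members and the highest for 1. The part of RNA quality in these values was not tested. Without WT array 1 Plau lost its call between Pap and WT (1.38, adjusted p = 0.0687), and no other member's call between Pap and WT or between Pap and InvEE changed without WT array 1 or InvEE array 3.

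Markers of other cell types were measured because macrophages, neutrophils, endothelial cells and keratinocytes also express members of this system. The mean of 7 endothelial markers, a cell type known for Plat, was 5.52 to 6.22 in Pap, 5.42 to 6.17 in InvEE and 5.39 to 5.71 in WT arrays. Of these 7 markers 4 were dim in Pap, 5 in InvEE and 5 in WT, Kdr, Tie1, Tek and Emcn in all groups, and 0 were called in any comparison by limma (2 at an unadjusted p under 0.05 between Pap and WT, 0 in the others). The mean of 9 macrophage markers was 6.31 to 6.86 in Pap, 6.13 to 6.78 in InvEE and 6.56 to 7.05 in WT, with Ptprc, Adgre1 and C1qa dim in all groups, and 1, Csf1r, fell between Pap and WT. The mean of 5 neutrophil markers was 6.45 to 7.00 in Pap, 5.96 to 6.20 in InvEE and 5.95 to 6.07 in WT, and 2 of the 5, S100a9 and Mmp9, rose between Pap and each other group, while Cxcr2 was dim in all groups. The mean of 10 keratinocyte markers was 6.68 to 8.36 in Pap, 7.89 to 9.15 in InvEE and 6.33 to 6.85 in WT, and 2 of 10 rose between Pap and WT (Krt14 and Dsp) and 2 of 10 between InvEE and WT (Krt15 and Perp). At an unadjusted p under 0.05 by limma the counts were larger, 3 of 10 between Pap and WT and 8 of 10 between InvEE and WT. The list's median differences there were 0.55 and 1.68, so its shift in InvEE went beyond the called genes. Between Pap and InvEE 1 of these 10 keratinocyte markers fell (Krt15), with a median difference of -0.89 for the list and 5 at an unadjusted p under 0.05. Of 7 pericyte and smooth muscle markers, with means of 7.08 to 7.56 in Pap, 7.68 to 7.97 in InvEE and 8.06 to 8.20 in WT, 2 fell between Pap and WT, 1 between InvEE and WT and 3 between Pap and InvEE, and 0 markers of T cells, mast cells or Schwann cells were called by limma (at most 2 of a list at an unadjusted p under 0.05). Mmp9 is also counted among the Mmp genes that rose. The part of pericyte, neutrophil and keratinocyte RNA in the results on Timp1, Plau, Plaur and the Mmps was not tested.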

How the data were processed

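The authors deposited 1 log2 expression value per probe set and array, 45101 probe sets on 12 Affymetrix mouse arrays, between 2.08 and 14.96. Per the submitters' processing notes limma was used; how background was corrected and probes summarised and normalized is not given in the sources used here. Per the labels' protocols, RNA was amplified with a NuGEN kit and labelled with biotin. Lower quartiles differed between arrays by 0.284 and upper quartiles by 0.276, over a limit of 0.1, so values were quantile normalized here. Of the probe sets 34945 had 1 gene symbol, 932 several and 9160 none, and 64 were controls; 34741 of those with 1 symbol matched a current gene entry. No pair of arrays shared over 0.253% identical values.

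For 18193 genes, limma's linear model with a mean per group took in all 12 arrays, in version 3.58.1 under R 4.3.3 (lmFit, eBayes), two-sided, with Benjamini-Hochberg adjustment over all genes; single probe sets were fitted over all non-control probe sets. The fit was tested on simulated data. Array number limits the precision of every value. Alternatives were no quantile normalization, the mean of a gene's probe sets, dim genes left out, a shift by the mean of 41 ribosomal protein genes, the spike level as covariate, a replicate block, a variance trend, the 8 arrays compared, a threshold of 0.01 and each array left out. Pathway genes named were those called in at least 1 comparison, at most 6 per list by adjusted p, plus Plg, Timp4 and Reck; genes that overlap a member were added after seeing the data. The members and lists were chosen with earlier results of these data known.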

Additional observations from a re-analysis of the deposited data

Results flagged for a closer look

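In groups of 4 arrays, 1 array was far from its nearest neighbour relative to the group's whole range in 8 of 126 tests over the named genes; chance gives about 1 in 20. Timp1 in InvEE array 2 was 9.68, against 8.95 to 8.98 in the other InvEE arrays. Timp3 in InvEE array 3 was 9.36, against 10.47 to 10.61. F2r in WT array 4 was 8.01, against 10.82 to 11.38. Mmp10 in InvEE array 2 was 5.77, a dim level, against 5.99 to 6.01. The other 4 were highest in Pap array 4: Mrc2 (10.66, against 10.47 to 10.49), Itgav (11.87, against 10.90 to 10.99), Itgb1 (11.70, against 11.29 to 11.36) and Syn3 (7.70, against 6.98 to 7.05).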

How the results depend on the processing

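Timp1 and Plat kept their direction and calls in both comparisons with Pap under all 20 alternatives (8 settings and 12 arrays left out). Over all members and comparisons, 132 of 144 values under the 8 settings and 205 of 216 with an array left out kept direction and side of the threshold. Alternatives for the pathway genes were chosen after seeing the data: 574 of 600 values with an array left out and 364 of 398 others kept their call, and 0 reversed. Reck between InvEE and WT apart, only results already called entered this count, a choice that favours a high share. Signs turned for Timp2 between Pap and WT with the ribosomal protein shift (0.07), Timp3 between Pap and WT on the mean of its probe sets (-0.17), and Plat between InvEE and WT with that shift (-0.13) and with the spike covariate (-0.31). Calls were lost for Plau between Pap and WT on the mean of its probe sets (0.98) and in the 8 arrays alone (1.43), and with the spike covariate between Pap and InvEE for Plau (2.48) and Plaur (0.85). Calls were gained with the variance trend for Timp2 between InvEE and WT (-0.57, adjusted p = 0.0324) and between Pap and InvEE (0.43, adjusted p = 0.0248), and with the ribosomal shift between Pap and InvEE for Timp2 (0.80) and Timp3 (0.97). Between Pap and WT 1756 genes were called, 1094 in the 8 arrays alone, 757 at a threshold of 0.01 and 1259 to 1792 with 1 array left out. Between InvEE and WT 97 were called, 62 without quantile normalization, 228 on the mean of probe sets, 0 with the spike covariate (2206 at an unadjusted p under 0.05), 0 at a threshold of 0.01, and 0 to 249 with 1 array left out (0 without InvEE array 1, InvEE array 2 or WT array 1). Here 41.7% were higher in InvEE on the mean of probe sets. Between Pap and InvEE 1221 were called, 3139 with the ribosomal shift, 259 with the spike covariate, 396 at a threshold of 0.01, and 578 to 1581 with 1 array left out (578, 621 and 716 without InvEE array 1, 2 or 4). With 1 array left out, differences between Pap and WT were 2.82 to 3.27 for Timp1, -0.17 to -0.09 for Timp2, -0.10 to 0.17 for Timp3 (sign turned without WT array 4), 2.50 to 2.88 for Plat, 1.21 to 1.84 for Plau and 0.24 to 0.59 for Plaur. Between InvEE and WT they were 0.34 to 0.69 for Timp1, -0.66 to -0.49 for Timp2, -0.71 to -0.24 for Timp3, -0.19 to 0.20 for Plat, -0.76 to -0.45 for Plau and -1.13 to -0.78 for Plaur. Between Pap and InvEE they were 2.31 to 2.75 for Timp1, 0.35 to 0.52 for Timp2, 0.31 to 0.73 for Timp3, 2.51 to 2.78 for Plat, 1.78 to 2.41 for Plau and 1.18 to 1.51 for Plaur. Same-numbered arrays of different groups correlated at -0.094 to 0.177 (over 0.1 in 2 of 12 pairs), so replicate numbers were not taken as pairs. With the replicate number as a block, Timp1 between Pap and WT was 3.02 ± 0.32 (adjusted p = 0.00114), no member's call changed, and 1551, 57 and 1039 genes were called between Pap and WT, InvEE and WT, and Pap and InvEE. Where not stated, the cause of a change was not tested. Dim levels limit the size of the differences given, and their part in the direction was not tested.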
